A study of Rattus norvegicus with 30 samples.

Results

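The comparison asked whether the response of microglia to a stroke differed with age at day 14. In each animal that response was the expression of a gene in microglia of the ipsilateral (injured) hemisphere minus that in microglia of the contralateral (opposite) hemisphere, called the hemisphere effect here. The difference between ages was the hemisphere effect at 12 months minus the hemisphere effect at 3 months. It used 12 of the 30 arrays, chosen by their titles, with 3 arrays in each of 4 groups: ipsilateral at 12 months, contralateral at 12 months, ipsilateral at 3 months and contralateral at 3 months. All 4 groups were microglia of male rats 14 days after a transient occlusion of the middle cerebral artery by a monofilament for 75 min. The strain is given in conflicting ways, as Wistar Kyoto in the sample characteristics and as spontaneously hypertensive in the protocols. The sample codes tie the arrays to 3 animals at 12 months and 3 at 3 months, each with both hemispheres. The other arrays of the series were day 3 and sham arrays at both ages. They entered the fit to estimate the spread, and day 3 is compared below.

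Microglia are the resident macrophages of the brain. After a stroke they lose part of the expression that marks resting cells, such as the purinergic receptors, and take up a phagocytic state with lysosomal, lipid-handling and complement genes, together with an interferon response. Complement is a cascade of plasma proteins that starts with the C1 complex on one of its routes. Serping1 encodes the C1 inhibitor, a serpin that blocks the proteases of that complex and also those of the contact system.

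The interferon genes Irf7 (a transcription factor that drives interferon genes) and Mx1 (an antiviral GTPase) rose in the injured hemisphere at both ages, with differences between ages of -0.10 and -0.05 log2 units, and their promoters are shown because the interferon-stimulated response element is the best known route by which such genes are switched on. The windows run from 250 bases before to 50 bases after the start of the gene and come from RefSeq on the rat assembly GRCr8. Irf7 lies at chr1:205799974-205800273 and Mx1 at chr11:50294557-50294856, both on the minus strand and written 5′ to 3′ along the gene. Capitals mark a match to the element, searched as GAAA, any 2 bases and GAAA on either strand.
Irf7: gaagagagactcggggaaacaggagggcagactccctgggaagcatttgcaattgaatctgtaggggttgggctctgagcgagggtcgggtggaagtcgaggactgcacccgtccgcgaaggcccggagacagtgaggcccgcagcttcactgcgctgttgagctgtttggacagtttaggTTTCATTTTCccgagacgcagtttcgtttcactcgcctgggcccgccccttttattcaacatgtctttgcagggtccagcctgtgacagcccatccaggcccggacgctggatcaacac
Mx1: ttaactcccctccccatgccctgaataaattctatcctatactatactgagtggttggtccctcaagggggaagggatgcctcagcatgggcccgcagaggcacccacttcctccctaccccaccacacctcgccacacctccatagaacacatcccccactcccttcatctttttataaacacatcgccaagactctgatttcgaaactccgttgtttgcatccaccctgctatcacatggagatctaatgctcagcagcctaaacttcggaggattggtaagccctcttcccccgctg
The Irf7 window held 1 match, TTTCATTTTC, which begins at position -69 from the start of the gene and reads the element on the opposite strand. The Mx1 window held none, which says only that these letters are not in it. Over all promoters, 1034 of 27457 windows (3.77%) held a match. Of the 40 interferon response genes tested, 29 had a window and 18 of these (62.1%) held a match. The median difference between ages was -0.02 log2 units over the 18 genes with a match and -0.10 over the 11 without.

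Values are log2 signals, so that 1 log2 unit is a 2-fold difference of signal. Array medians lay between 5.06 and 5.24 and the 30th percentile of an array, used as a mark for dim values, between 4.07 and 4.35. Of 14 general microglia and macrophage markers 13 were tested, with a mean level of 10.98 to 11.09 on the 12-month ipsilateral, 10.87 to 10.96 on the 12-month contralateral, 10.83 to 10.92 on the 3-month ipsilateral and 10.58 to 10.66 on the 3-month contralateral arrays. None of these 13 was dim on all arrays of a group. Neuronal, astrocyte and ependymal lists had means of 4.63 to 5.48. Some other lists were higher, at 6.29 to 6.52 (endothelial) and 5.88 to 6.45 (oligodendrocyte). The list of infiltrating monocytes and macrophages had 5.72 to 6.44, and that of border-associated macrophages 5.75 to 6.85. In RNA from many cells, fewer cells of a type and less RNA per cell cannot be told apart. The number in the sample codes differs between the 12-month and the 3-month day 14 arrays, so that it and age cannot be told apart. A shift added to both hemispheres of an age cancels in the difference between ages, but a difference of scale does not. The SD over an array was 1.98 to 2.02 (ipsilateral) and 1.94 to 1.99 (contralateral) at 12 months, against 1.90 to 1.93 and 1.85 to 1.87 at 3 months.

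The 1 gene called by limma as changing differently between the ages was Serping1 (adjusted p under 0.05). It was raised in the injured hemisphere at both ages, and far less at 12 months. At 12 months the ipsilateral arrays read 5.61, 5.49 and 5.03 and the contralateral arrays 4.18, 4.39 and 4.36. At 3 months the ipsilateral arrays read 8.20, 6.87 and 8.15 and the contralateral arrays 4.0, 4.36 and 4.32. The ipsilateral arrays of the ages did not overlap and the contralateral arrays did, close to the dim mark, with 1 of 3 contralateral arrays at or below it at each age.

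The hemisphere effect of Serping1 was 1.43, 1.10 and 0.67 log2 units in the 12-month animals, against 4.20, 2.51 and 3.82 in the 3-month animals. All 6 animals had a positive effect, and the lowest 3-month animal lay above the highest 12-month animal. In limma, the effect was 1.07 ± 0.21 (SE) at 12 months (adjusted p = 0.000345) and 3.51 ± 0.21 at 3 months (adjusted p = 2.17e-13). The difference between ages was -2.44 ± 0.29, with a 95% interval of -3.04 to -1.84 (limma adjusted p = 4.36e-05, n = 3 arrays per group). These standard errors rest on 1 spread shared by all groups. The SD of the arrays was 0.75 in the ipsilateral 3-month day 14 group, against 0.07 to 0.31 in the other groups. The interval does not allow for that unequal spread. An exact two-sided permutation test over the 6 animals gave p = 0.10, the smallest that 3 against 3 can give.

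The ages stood apart for Serping1 in the ipsilateral hemisphere (12 minus 3 months, -2.36 log2 units, limma adjusted p = 4.12e-08) and differed by 0.08 in the contralateral one (adjusted p = 0.777). Sham arrays averaged 4.44 ± 0.10 at 12 months and 4.11 ± 0.16 at 3 months (SD, n = 3). On day 3 the group means lay between 4.16 and 4.52, and the difference between ages was -0.24 (limma adjusted p = 0.798). The day 14 difference minus the day 3 difference was -2.20 ± 0.42 (limma adjusted p = 0.0215). Beside it, the differences of the other 12 complement genes tested ran from -0.49 (C3, the central component of the cascade) to 0.71 (Cfd).

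**Figure D1:**
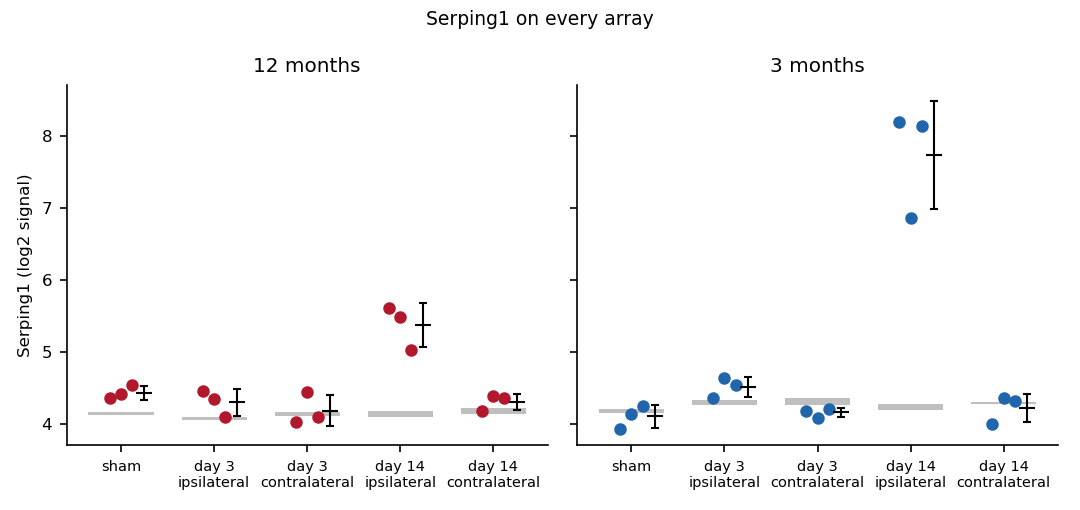
Log2 signal of Serping1 on all 30 arrays, 12 months on the left and 3 months on the right. Dots are arrays, black bars the group mean ± SD (n = 3) and grey bands the range of the arrays' 30th percentiles. The ipsilateral day 14 arrays stand above every other array at both ages, at 5.03 to 5.61 at 12 months and 6.87 to 8.20 at 3 months.

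Serping1 was the only gene of 11675 (0.00857%) that limma called at an adjusted p under 0.05, with 0 genes higher and 1 lower at 12 months. At an unadjusted p under 0.05 there were 1045 genes (8.95%), of which 451 (3.86%) had a higher and 594 (5.09%) a lower hemisphere effect at 12 months. By the p-value distribution, 90.84% (local false discovery rate) or 85.52% (convest) of genes were estimated to have no difference. The standard error of the difference had a median of 0.16 log2 units, and 3 arrays per group limit the precision.

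With 1 spread per gene shared by all groups, the intervals bound how far apart the ages could be. The 95% interval reached 0.32 to either side of the estimate for the median gene, and 0.26 and 0.42 at the lower and upper decile of genes. It lay within -1 to 1 log2 units for 11492 genes (98.4%) and within -0.5 to 0.5 for 7340 (62.9%). It lay wholly beyond 1 unit for Serping1 alone, and wholly beyond 0.5 for 6 genes: Serping1, Mmp8, Chad, Gdf15, Rab13 and Tcp11l1. For the rest, the interval holds differences of more than 0.5 in at least one direction.

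Differences of at least 1 log2 unit were estimated for 5 genes, and besides Serping1 none was called. Mmp8, the collagenase of neutrophils, had hemisphere effects of -0.09, 0.15 and -0.06 in the 12-month animals, against 1.38, 1.28 and 1.07 in the 3-month animals. The ages did not overlap, with a difference of -1.25 ± 0.30 (limma adjusted p = 0.159). Its ipsilateral arrays at 12 months read 4.10, 3.83 and 3.98 and those at 3 months 5.33, 5.21 and 5.05. All 3 arrays of each day 14 group other than the ipsilateral 3-month group were at or below the dim mark, so the fitted value rests on dim readings. Outside day 14, Mmp8 read up to 5.05 on the ipsilateral day 3 arrays of 3 months and 4.96 on 1 sham array of 3 months. The difference for Mmp8 was called in a fit of the 12 day 14 arrays alone (limma adjusted p = 0.0341).

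S100a11, a calcium-binding protein, stood at 8.86, 6.34 and 6.91 (ipsilateral) and 7.54, 6.11 and 6.29 (contralateral) at 12 months, against 8.59, 8.49 and 8.65 and 5.18, 7.18 and 5.73 at 3 months. One ipsilateral array at 12 months was far above the other 2. The difference of -1.82 ± 0.82 was not called (limma adjusted p = 0.523), and its interval of -3.50 to -0.13 is among the widest given here. Mt3 (a metallothionein of the brain, 1.06 ± 0.37, adjusted p = 0.426) and Gem (a small GTPase, -1.04 ± 0.31, adjusted p = 0.298) complete the 5 and were named after their values were seen. For Mt3, contralateral array 1 at 3 months read 7.97 against 6.59 and 6.33 on the other 2. That array also had the highest neuronal (5.34) and astrocyte (5.48) list means of the 12, and their part in the result was not tested.

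The 10 genes nearest to the threshold had limma adjusted p-values of 0.0841 to 0.102, and they are given as values. Of these, 6 had a positive difference. Rab13, a GTPase of vesicle traffic and cell junctions, had effects of 1.90, 1.27 and 1.56 in the 12-month animals, against 0.91, 0.02 and 0.82 in the 3-month animals (difference 1.00 ± 0.21). Gdf15, a stress-induced hormone of the TGF-beta family, had 1.90, 0.73 and 1.18 against 0.38, 0.27 and 0.21 (0.98 ± 0.21). The groups did not overlap for either gene, and 1 contralateral array at 3 months (6.51 against 5.61 and 5.67) gave the low Rab13 value of 0.02.

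Tcp11l1 (effects of 0.89 to 1.23 at 12 months against 0.08 to 0.49 at 3 months, difference 0.88) and Itsn1, a scaffold of endocytosis (0.80 to 1.36 against 0.13 to 0.34, difference 0.79), were called between hemispheres at 12 months only. Stat5a, a transcription factor of cytokine signalling (-0.10 to 0.26 against -0.77 to -0.38), and Acvr1b, an activin receptor (-0.02 to 0.19 against -0.81 to -0.27), were called lower in the injured than in the opposite hemisphere at 3 months only, with differences of 0.68 and 0.63. At 3 months Stat5a averaged 5.46 ipsilaterally and 6.01 contralaterally, with sham arrays at 5.43 to 5.69. Acvr1b averaged 5.76 and 6.32 there, with sham arrays at 6.13 to 6.24. Being called at one age only does not show a difference between ages, and none of these differences was called.

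The other 4 of the 10 had negative differences. Chad (chondroadherin, a matrix protein, -0.97 ± 0.21) and Astn1 (astrotactin, a neuronal migration protein, -0.70 ± 0.15) fell in the injured hemisphere at both ages. Chad had effects of -1.56, -1.65 and -1.59 in the 12-month animals, against -1.08, -0.58 and -0.23 in the 3-month animals, with no overlap. Its contralateral arrays read 7.93, 8.23 and 8.21 at 12 months, against 6.67, 6.39 and 6.28 at 3 months. Vamp7, a SNARE of late endosomes (-0.66), and Ppp4r3b, a phosphatase subunit (-0.67), had 12-month effects of -0.01 and -0.04. They were called higher in the injured than in the opposite hemisphere at 3 months (0.65 and 0.63). The ages lay apart contralaterally, with means of 7.75 at 12 months against 6.98 at 3 months (Vamp7) and 7.58 against 6.82 (Ppp4r3b). Ipsilateral means were 7.74 against 7.63 and 7.54 against 7.45. Sham arrays of 3 months read 7.55 to 7.73 (Vamp7) and 7.49 to 7.65 (Ppp4r3b).

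**Figure D2:**
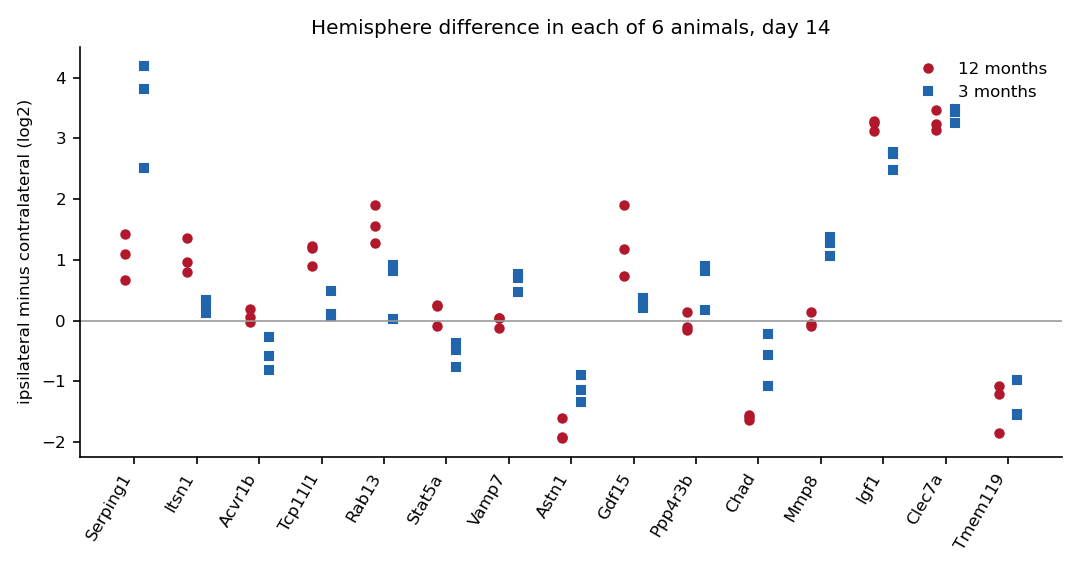
Ipsilateral minus contralateral log2 signal in each of the 6 animals, red circles for 12 months and blue squares for 3 months. Serping1 at the left shows the widest gap (0.67 to 1.43 at 12 months, 2.51 to 4.20 at 3 months), and Clec7a and Tmem119 at the right overlap between the ages.

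The genes with the largest effects were chosen for being large at both ages, so that this is a description and not a finding. Clec7a, the receptor dectin-1, had effects of 3.47, 3.14 and 3.24 in the 12-month animals, against 3.48, 3.44 and 3.26 in the 3-month animals. The ages overlapped, with a difference of -0.11 and a 95% interval of -0.74 to 0.52. Gpnmb, a glycoprotein of phagocytes, had 3.18, 2.75 and 3.31 against 3.63, 3.33 and 3.24 (-0.31, interval -0.93 to 0.31). Sulf2, an extracellular sulfatase, differed by 0.08 (-0.51 to 0.66). Lgals3 (galectin-3) had effects of 3.23, 2.98 and 3.33 in the 12-month animals, against 3.58, 3.88 and 3.67 in the 3-month animals. The ages did not overlap for it, and the difference of -0.53 (interval -1.19 to 0.13) was not called (limma adjusted p = 0.658). Apoc1, an apolipoprotein, had 3.76, 3.20 and 3.14 against 3.41, 3.44 and 4.35, which overlapped (-0.37, interval -1.43 to 0.69).

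Pdk4, Igf1 and Axl had a larger effect in each 12-month animal than in any 3-month animal, and their differences were not called. Pdk4, a kinase that restrains pyruvate oxidation, had ipsilateral arrays of 9.41, 9.17 and 9.71 at 12 months, against 9.62, 9.82 and 9.70 at 3 months. Its contralateral arrays read 5.47, 5.28 and 5.45 at 12 months, against 5.99, 6.84 and 6.92 at 3 months. The ages thus lay apart contralaterally and overlapped ipsilaterally, and the effects of 3.93, 3.89 and 4.25 against 3.63, 2.99 and 2.78 differed by 0.89 ± 0.26 (limma adjusted p = 0.281). Sham arrays of Pdk4 read 4.87 to 5.05 at 12 months and 6.75 to 7.13 at 3 months. On day 3 its difference between ages was 1.73 ± 0.26 and was called (limma adjusted p = 0.000246). The day 14 minus day 3 change of -0.84 was not called (limma adjusted p = 0.353).

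Igf1, a growth factor, read 10.48, 10.48 and 10.32 ipsilaterally at 12 months against 10.56, 10.71 and 10.54 at 3 months. Contralaterally it read 7.22, 7.18 and 7.19 against 7.79, 8.23 and 7.80. The 12-month arrays lay below the 3-month arrays in both hemispheres, without overlap. The difference was 0.56 ± 0.18 (limma adjusted p = 0.374). Axl, a receptor kinase for dying cells, had effects of 3.54, 3.52 and 3.69 in the 12-month animals, against 3.17, 2.93 and 3.10 in the 3-month animals (0.52, limma adjusted p = 0.572).

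Among genes that fell, Alox5, the 5-lipoxygenase of leukotriene synthesis, had effects of -2.05, -2.77 and -1.97 in the 12-month animals, against -1.83, -2.18 and -2.11 in the 3-month animals. The ages overlapped, with a difference of -0.23 (interval -0.66 to 0.21). Dpp6, a potassium channel subunit, differed by -0.11 (-0.54 to 0.32) and the cytokine Il6 by -0.38 (-0.94 to 0.18). The narrowest interval among strongly changed genes was that of Abca1, a cholesterol exporter, at -0.29 (-0.53 to -0.05), followed by Hsdl2 at 0.36, Igf1, Fcrl2 at -0.57 and Cd34 at -0.40. None of these was called (limma adjusted p = 0.374 to 0.583).

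**Figure D3:**
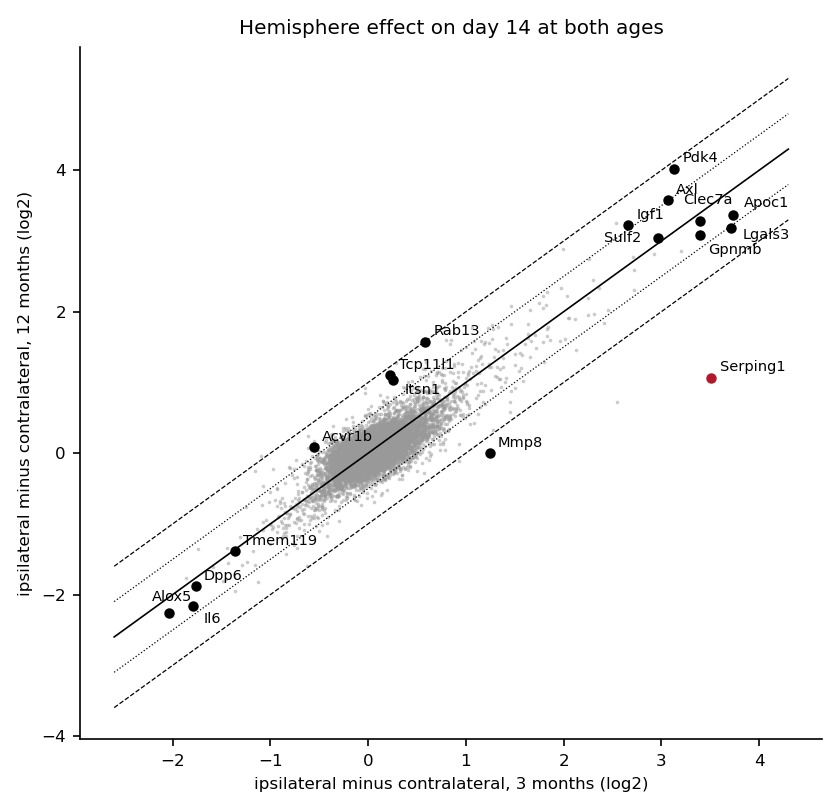
Hemisphere effect of 11675 genes at 12 months (vertical) and 3 months (horizontal), in log2 units. The solid line marks equal effects, dotted lines a difference of 0.5 and dashed lines a difference of 1, and Serping1 (red) lies far below them, with 1.07 at 12 months and 3.51 at 3 months.

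Across genes, the effects of the ages, which share no array, correlated at r = 0.81 (Spearman's rho 0.63) over 11675 genes, which are not independent replicates. The spread of the effects was nearly equal, with an SD of 0.33 at both ages and a principal axis of slope 0.98. Their difference had an SD of 0.20 over genes, where the standard errors had a root mean square of 0.17. At 12 months limma called 1271 genes higher (10.9% of those tested) and 694 lower (5.94%) in the injured hemisphere, and at 3 months 1537 higher (13.2%) and 828 lower (7.09%). Of the 3048 genes called at either age, 92.2% had the same sign at both, against 71.5% of all 11675 genes.

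Of the 1282 genes called at both ages, 1281 had the same direction, 903 higher and 378 lower in the injured hemisphere. The interval lay within -1 to 1 for 95.55% of the 1282 and within -0.5 to 0.5 for 58.97%. The median difference was -0.03 over the 903 and -0.07 over the 378, against 0.00 over all genes, and 266 of the 378 (70.4%) had the larger fall at 12 months. Of the 903, 398 (44.1%) had the larger rise at 12 months, and of all genes 46.2% had the effect of larger size at 12 months. The exception was Prorsd1, a homologue of a tRNA-editing domain, called higher at 12 months (0.39) and lower at 3 months (-0.36). Its effects were 0.32, 0.62 and 0.22 in the 12-month animals, against 0.05, -0.35 and -0.78 in the 3-month animals, and the difference of 0.75 ± 0.18 was not called (limma adjusted p = 0.142).

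Among the genes that responded most, 131 had an effect of at least 1 log2 unit in the same direction at both ages. Of these, 73 had the larger effect at 12 months, 94 had an interval within -1 to 1 and 24 within -0.5 to 0.5. A further 683 genes were called at 12 months only and 1083 at 3 months only. Their differences between ages reached an unadjusted p under 0.05 for 29.87% and 32.32%, which follows in part from choosing them on 1 age.

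The profiles of hemisphere effects over all genes correlated at 0.66 to 0.75 between animals of 12 months (3 pairs), 0.60 to 0.66 within 3 months (3 pairs) and 0.52 to 0.68 between ages (9 pairs). The animals of the ages did not overlap for 1498 genes (12.8%), 655 with higher and 843 with lower effects at 12 months.

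**Figure D4:**
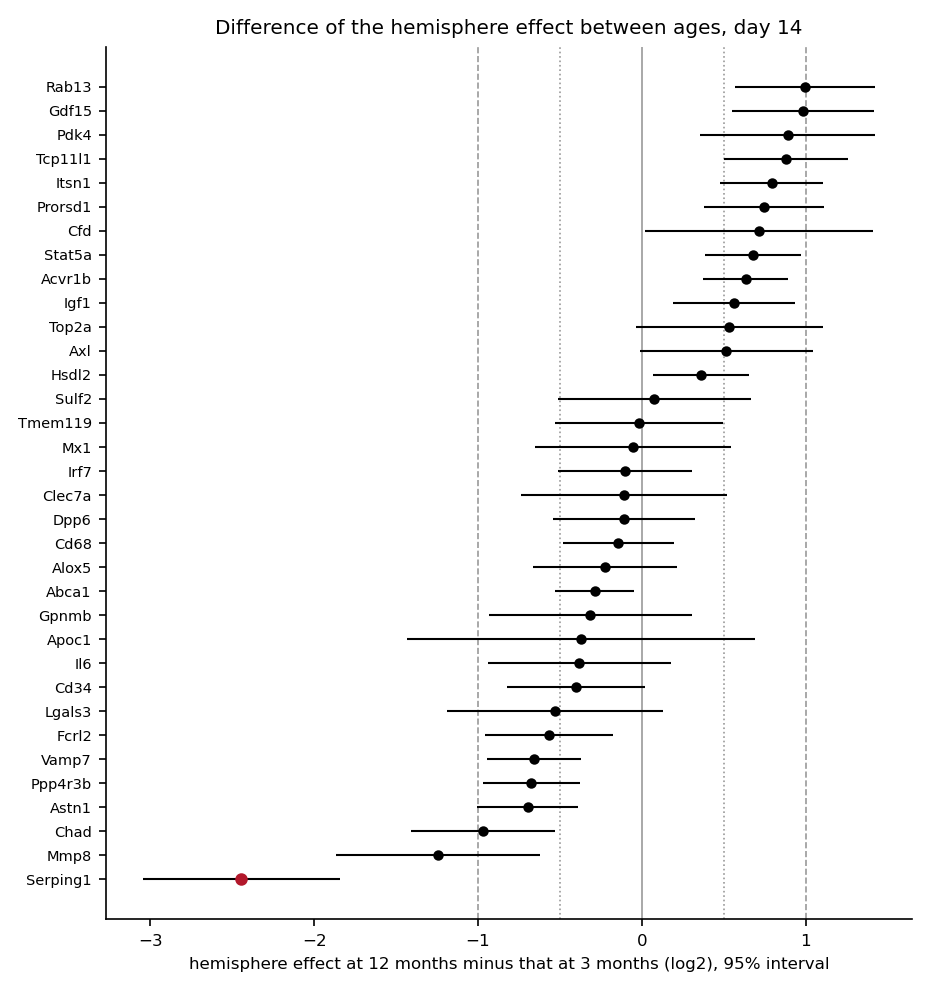
Difference of the hemisphere effect between ages (12 minus 3 months, log2 units) for 34 genes, as point and 95% interval. Lines mark 0, 0.5 and 1 to either side, and the interval of Serping1 alone lies wholly beyond 1.

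By function, no list apart from complement held a called gene, where only Serping1 of 11675 genes (0.00857%) was called. List values are given as counts and medians beside 0.00 over all genes. Of 29 disease-associated genes, which mark phagocytic microglia around lesions, 19 rose in the injured hemisphere at 12 months and 20 at 3 months, 18 of them at both. The median difference was -0.17, and 24 of 29 lay below 0. The largest was Lilrb4, an inhibitory receptor, at -0.74 (interval -2.01 to 0.53). Of 21 homeostatic genes, 15 fell at 12 months and 14 at 3 months, all 14 at both ages, with a median difference of -0.14. It was -0.08 without ipsilateral array 1 of 3 months and likewise without contralateral array 3 of 12 months.

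Tmem119, a marker of resident microglia, had effects of -1.09, -1.86 and -1.20 in the 12-month animals, against -0.98, -1.56 and -1.55 in the 3-month animals. The ages overlapped, and the difference was -0.02 (-0.53 to 0.49). The ADP receptor P2ry13 differed by -0.28 and the selectin ligand Selplg by -0.01. The largest homeostatic difference was that of the receptor Gpr34, with effects of -1.13, -1.11 and -1.0 at 12 months against -0.49, -0.89 and -0.59 at 3 months (-0.43 ± 0.18, limma adjusted p = 0.483).

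Of the 40 interferon response genes, 17 rose and 1 fell at 12 months and 23 rose at 3 months, and 17 rose at both. Their median difference was -0.05, with 26 of 40 below 0. Leaving out 1 array moved it to between -0.09 (without ipsilateral array 3 of 3 months) and 0.01 (without contralateral array 2 of 12 months), and it was 0.00 without ipsilateral array 2 of 12 months. Mx1, whose promoter is shown above, read 7.41, 7.49 and 7.62 ipsilaterally at 12 months against 7.45, 7.40 and 6.97 at 3 months, and 4.74, 5.68 and 5.52 contralaterally against 5.07, 4.88 and 5.12. Its effects of 2.67, 1.82 and 2.10 overlapped with 2.37, 2.52 and 1.85 (difference -0.05, interval -0.65 to 0.54). Irf7 had 1.31, 1.04 and 1.30 against 0.96, 1.79 and 1.21 (-0.10, interval -0.51 to 0.31) and Mx2 differed by -0.03. The largest was Usp18, a brake on interferon signalling, at -0.58 (limma adjusted p = 0.497). Of its contralateral arrays, 2 of 3 at 12 months and 3 of 3 at 3 months were at or below the dim mark.

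The lysosome and phagocytosis list had 33 tested genes, of which 20 rose and 3 fell at 12 months and 24 rose and 1 fell at 3 months. Their median difference was -0.17 and 29 of 33 lay below 0. Cd68, a lysosomal glycoprotein of macrophages, had effects of 2.0, 1.84 and 1.88 in the 12-month animals, against 2.21, 2.08 and 1.87 in the 3-month animals, which overlapped (-0.14). Of 28 cytosolic ribosomal protein genes, 19 rose at 12 months and 27 at 3 months. All 28 had a negative difference, with a median of -0.22 and the largest for Rpl4 at -0.38 ± 0.12 (limma adjusted p = 0.374). Of 31 oxidative phosphorylation genes, 22 rose at 12 months and 26 at 3 months, with a median difference of -0.09, or -0.05 without contralateral array 2 of 3 months.

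These medians moved with the signal level and the scaling. All 28 ribosomal genes and 28 of 33 lysosomal genes were in the highest of 5 equal groups of genes by level. There the median difference over all 2335 genes was -0.08 and 69.7% lay below 0, against 0.04 and 41.2% in the lowest group. With the arrays quantile normalized again, the highest group had -0.03 and 56.2%, the ribosomal list -0.09 with 22 of 28 below 0, the lysosomal list -0.08, the disease-associated list -0.08 and the homeostatic list -0.03. With the arrays scaled to 1 SD instead, the highest group had -0.05 and 63.6%, the ribosomal list -0.18 with 26 of 28 below 0, the lysosomal list -0.14, the disease-associated list -0.18 and the homeostatic list -0.06.

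Cell cycle genes were the list with the highest median difference, 0.18, with 19 of 26 above 0. Of the 26, 2 were dim on all 3 arrays of the 12-month ipsilateral group and 6 in each of the other day 14 groups. In the injured hemisphere 5 rose and 1 fell at 12 months, and 0 rose and 1 fell at 3 months. The list mean of the effect was 0.43, 0.09 and 0.04 in the 12-month animals, against 0.08, -0.03 and 0.00 in the 3-month animals, so that 1 animal of 12 months stood above the other 5. Top2a, a topoisomerase of dividing cells, shows it with 1.27, 0.66 and 0.02 against 0.27, -0.08 and 0.15 (difference 0.53, limma adjusted p = 0.592). Without that animal's ipsilateral array the list median was 0.01, and without any one of the other 11 arrays it lay between 0.16 and 0.31, the highest without ipsilateral array 3 of 12 months.

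Alternative activation genes, linked to repair, had a median difference of 0.13, with 12 of 16 above 0. It was 0.09 without ipsilateral array 1 of 3 months and 0.08 without ipsilateral array 1 of 12 months. In the injured hemisphere 4 of the 16 rose at 12 months, and 5 rose and 1 fell at 3 months. The median effect over the list was 0.09 at 12 months and -0.05 at 3 months. The mean effect over the list was 0.55, 0.51 and 0.45 in the 12-month animals, against 0.28, 0.39 and 0.28 in the 3-month animals, without overlap. The largest difference was that of the mannose receptor Mrc1 at 0.95 (limma adjusted p = 0.579), with effects of 1.58, 0.61 and 0.58 against -0.18, -0.15 and 0.24. Mrc1 also marks border-associated macrophages, whose 11 genes had mean effects of 0.73, 0.28 and 0.31 against 0.11, 0.33 and 0.23, and in each group 1 of the 11 was dim on all 3 arrays. The part of those cells in the result was not tested.

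Of 13 complement genes, 6 rose at each age, Serping1 among them. Cfd, factor D of the alternative pathway, had effects of 3.29, 3.24 and 3.23 in the 12-month animals, against 2.47, 2.85 and 2.29 in the 3-month animals. They did not overlap, with a difference of 0.71 ± 0.34 (limma adjusted p = 0.542). Properdin (Cfp), which stabilises the convertase of that pathway, fell at both ages and differed by 0.12. Of the cholesterol synthesis genes, 10 of 18 fell at 12 months and 8 at 3 months (median difference -0.13, the largest for the epoxidase Sqle at -0.62). That median was -0.04 without ipsilateral array 1 of 3 months, -0.05 without contralateral array 2 of 3 months, -0.07 without contralateral array 3 of 12 months and -0.08 without ipsilateral array 2 of 12 months. Among MHC class II genes RT1-Da had the largest difference, -0.86, with an interval of -2.49 to 0.78.

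The lists of other cell types held no gene called between ages, where 1 of 11675 (0.00857%) was called over all genes. The list of infiltrating monocytes and macrophages had 19 tested genes, of which 6 rose at 12 months and 8 at 3 months, 1 fell at each age, and the median difference was -0.19. It was -0.37 without ipsilateral array 1 of 12 months, -0.12 without ipsilateral array 2 of 12 months and -0.07 without ipsilateral array 2 of 3 months. Their mean level ran from 5.91 to 6.44 on the ipsilateral arrays at 12 months, against 6.18 to 6.38 at 3 months. Neutrophil genes had a mean effect of -0.25, -0.03 and -0.24 in the 12-month animals, against -0.14, 0.16 and -0.88 in the 3-month animals, the contralateral array of the last having the highest list mean of the 12 (6.02). Neuronal genes had -0.19, -0.08 and -0.08 against -0.59, -0.16 and -0.12, and astrocyte genes -0.17, -0.15 and -0.12 against -0.59, 0.07 and -0.25. In both lists 1 animal of 3 months stood apart.

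**Figure D5:**
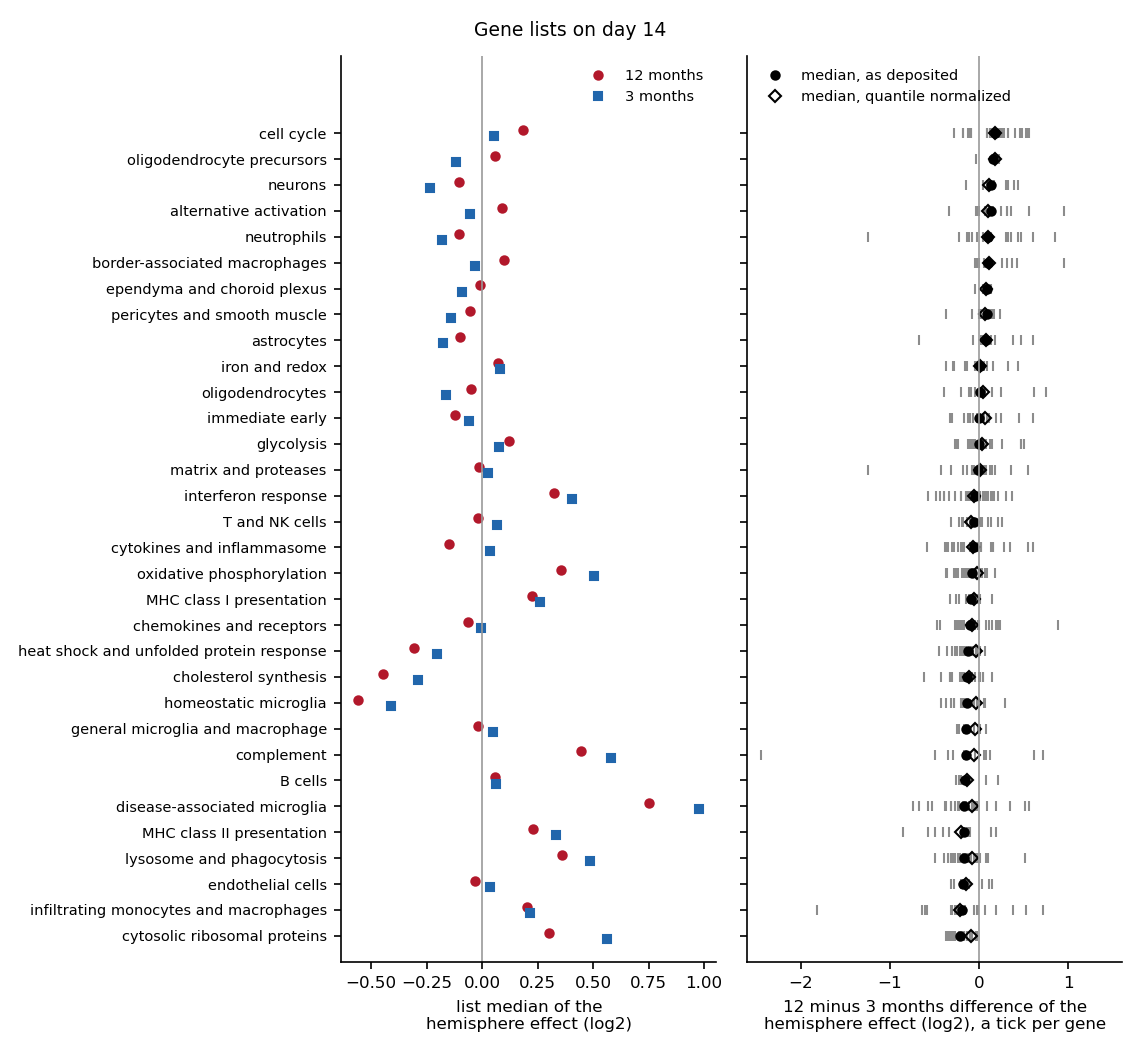
Left, the median hemisphere effect of each of 32 gene lists at 12 months (red circles) and 3 months (blue squares), in log2 units. Right, the difference between ages of each tested member (grey ticks), with the list median as deposited (filled) and after quantile normalization (open). The medians lie between -0.22 (ribosomal proteins) and 0.18 (cell cycle), and the tick at -2.44 in complement is Serping1.

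On day 3, the most similar comparison of the series, limma called 184 genes in the same difference between ages (1.58%), 166 higher and 18 lower at 12 months. Over all genes, the day 14 and day 3 differences correlated at r = 0.03 (rho -0.04). The 166 genes had a median difference of 0.77 on day 3 and 0.10 on day 14, where 111 kept a positive sign. Over all genes, 49.3% had a positive difference on day 14. The 166 were chosen on their day 3 values, so a smaller day 14 value follows in part from that choice. The change of the difference from day 3 to day 14 was called for 15 genes (0.128%), 2 higher and 13 lower on day 14. The 2 were Gdf15 at 1.55 ± 0.30 (limma adjusted p = 0.0215) and Nr4a3, an orphan nuclear receptor induced by stimulation, at 1.46 ± 0.30 (adjusted p = 0.038).

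Of the 13 genes with a lower difference on day 14, 4 besides Serping1 are given as examples, chosen after their values were seen. Spc25, a kinetochore protein, had a difference of 0.21 on day 14 and 1.77 on day 3 (day 14 minus day 3, -1.56 ± 0.25, limma adjusted p = 0.00847). Ect2, which drives cytokinesis, had 0.11 and 1.23 (-1.12 ± 0.19, limma adjusted p = 0.00847). The kinase Melk (-1.19) and the spindle protein Nusap1 (-1.18) changed likewise. On the day 14 arrays Ect2 read 3.22 to 3.62 and Melk 3.13 to 3.58, all below the dim mark. Their day 14 differences thus rest on dim readings, whereas Spc25 and Nusap1 read above the mark. Serping1 had the largest change of the 15, beside a day 3 difference of -0.24.

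Age itself was a broader contrast than its difference between hemispheres. Between the ages limma called 3493 genes (29.9%) in the ipsilateral and 4663 (39.9%) in the contralateral hemisphere on day 14, with a median of 0.10 log2 units over all genes in each. The number in the sample codes changes with age in both, so that the 2 cannot be told apart.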

How the data were processed

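The deposited values were log2 expression of 29214 probe sets on 30 Affymetrix rat gene arrays, which the authors derived using RMA in Affymetrix Expression Console (versions not stated), per the submitters' processing notes. They were used as deposited. Of the probe sets, 15310 had 1 gene symbol in the platform annotation (updated against RefSeq GRCr8 names), 323 several and 13581 were not listed. Probe sets above the 30th percentile of their array on at least 3 arrays were kept, and each gene was tested on its probe set with the highest mean, which gave 11675 genes.

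Group means of all 10 groups were fitted in 1 model with limma 3.58.1 in R 4.3.3 (20 residual and 8.8 prior degrees of freedom), with Benjamini-Hochberg adjustment over all genes. The code was tested on simulated data.

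Genes were named by a rule: those called, the 10 with the next smallest p, the 7 most raised and 3 most lowered at both ages, those called in opposite directions, the 5 narrowest intervals among strong responders, and per list the largest difference and up to 3 largest hemisphere effects. The members, rule and 32 lists were chosen with earlier results of these data known.

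The sample codes pair the hemispheres of each animal. The paired arrays' deviations from their group means correlated at -0.08 to 0.21 (duplicateCorrelation 0.07), and the model had no animal term. Stroke replicates have codes of their own, whereas nothing says that sham replicates were separate animals. The sources used here do not say how microglia were isolated.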

Additional observations from a re-analysis of the deposited data

Results flagged for a closer look

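The hemisphere effect of Serping1 on day 14 differed between the ages by a test of the difference itself, at -2.44 log2 units (12 minus 3 months, limma adjusted p = 4.36e-05). It was lower in all 3 animals of 12 months than in any of the 3 animals of 3 months. That comes from the same arrays as the test and adds no separate evidence. The animals of the ages did not overlap for 1498 of 11675 genes (12.8%).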

How the results depend on the processing

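Serping1 was called in each of the 29 alternatives, at -2.94 to -2.10 log2 units (limma adjusted p = 2.03e-10 to 0.0386). With the replicate block (animal fixed or random) 1 gene was called, the difference of Serping1 was -2.44, and the block changed no other call. Another scaling, dim filter, probe set rule or set of arrays gave 1 called gene, except that the 12 day 14 arrays alone gave 2, both lower at 12 months (Mmp8 added). Leaving out 1 array gave 1 to 8 called genes (0 to 3 higher, 1 to 5 lower), and leaving out an animal 1 to 5 (0 to 3 higher, 1 to 3 lower). Contralateral replicate 2 of 3 months gave the 8 (Crygs, Itsn1 and Tcp11l1 higher, Astn1, Clec5a, Exd2 and Ppp4r3b lower, besides Serping1). Contralateral replicate 1 of 3 months gave 4 (Acvr1b, Pdk4 and Rab13), ipsilateral replicate 2 of 12 months 4 (Aebp1, Itsn1 and Rab13) and contralateral replicate 2 of 12 months 2 (Gdf15). Without animal 1 of 3 months 4 were called, without animal 2 of 3 months 5 and without animal 2 of 12 months 4. The cause was not tested. With all arrays kept, the share of intervals within -0.5 to 0.5 ran from 56.32% to 67.26% and the correlation between the ages from 0.80 to 0.84. Values of genes near the dim mark are limited by background.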
